A study of Mus musculus with 6 samples.

Results

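DNA replication origin and fork genes were followed in C2C12, an immortalised mouse myoblast line with a wild-type genotype label, after cyclic mechanical stretch. The members are 49 genes chosen by symbol for their place in the replication machinery, from origin recognition to histone deposition, and all 49 were found among the 32815 gene rows of the table. The control group holds 3 libraries of cells labelled as controls. The stretched group, labelled MS, holds 3 libraries of cells on a plate bent at 4 mm displacement for 8 h at 1 Hz. The design text puts the tag MS6 beside the 8 h, so the stretch time is given as written there and is not certain. A common batch label covers all 6 libraries. The labels do not say whether replicate libraries are separate cultures, so each p-value reflects the spread among these libraries, possibly a technical one. The line is a culture model and not tissue.

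In dividing cells the origin recognition complex marks origins, and CDC6 and CDT1 load the MCM2-7 ring onto them in G1, a step called licensing. DDK and cyclin-dependent kinases then turn the ring into a helicase with CDC45 and GINS, and polymerases, the PCNA clamp and its loader copy the DNA behind it. Genes of this machinery are textbook targets of E2F transcription factors, which are restrained by RB proteins when cells leave the cycle, as myoblasts do when they differentiate.

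Promoter sequence is shown first, and any part of it in the changes given below was not tested. RefSeq promoter windows (build GRCm38.p6, 250 bases before to 50 bases after a gene's start) were found for 40 of the 49 members. The windows were searched on both strands for 4 spellings of the E2F consensus, TTTCCCGC, TTTCGCGC, TTTGCCGC and TTTGGCGC, whose matches on opposite strands can overlap. A match lay in a window of 16 of the 40 members and of 704 of 27025 genes with a window (2.61%). The latter were taken whether or not they passed the expression filter used below, which all members passed. Among the members, 15 of the 35 that were called lower after stretch and had a window held a match, as did Orc3 among the 5 others. The median log2 fold change was -0.73 for the 16 members with a match and -0.68 for the 24 without. A match is a description of letters, not of a bound site. The stretches below lie upstream of the start, 5′ to 3′ on the gene's strand, with matches in capitals (merged where they overlap). They show the largest faller of the MCM ring, the member with most matches, a loading factor, a polymerase subunit, and 2 origin recognition subunits that differed in direction.
Mcm5, chr8:75109326-75109397, plus strand: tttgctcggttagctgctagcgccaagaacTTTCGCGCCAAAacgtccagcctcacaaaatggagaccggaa
Mcm6, chr1:128359715-128359845, minus strand: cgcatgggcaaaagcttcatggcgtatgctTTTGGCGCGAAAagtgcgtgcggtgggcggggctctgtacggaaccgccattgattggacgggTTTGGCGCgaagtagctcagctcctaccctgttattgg
Cdc6, chr11:98907983-98908050, plus strand: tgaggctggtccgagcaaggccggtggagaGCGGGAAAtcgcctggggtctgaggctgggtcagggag
Pola1, chrX:93632256-93632323, minus strand: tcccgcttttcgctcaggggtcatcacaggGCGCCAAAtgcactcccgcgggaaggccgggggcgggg
Orc1, chr4:108579397-108579453, plus strand: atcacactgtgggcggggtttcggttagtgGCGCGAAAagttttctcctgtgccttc
Orc3, chr4:34614946-34615013, minus strand: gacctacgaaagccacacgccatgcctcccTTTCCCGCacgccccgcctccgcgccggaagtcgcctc

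Values are FPKM as deposited, fragments scaled by transcript length and library total, so levels of different genes can be set side by side. Summed FPKM ranged from 298991 to 329968 per library. Control 3 and MS 1 stood apart by transcripts of other tissues. A tongue and salivary gland list of 14 genes, 12 of them in the table and 8 reaching 1 FPKM, had a sum of 135 FPKM in control 3 and 157 in MS 1. Its sum was 9.27 to 12.4 elsewhere. A kidney list of 10 genes, 6 of them reaching 1 FPKM, had sums of 0.904 in control 1 and 1.16 in control 2, while control 3 and the 3 MS libraries had sums from 96.9 to 107. Lens genes (12 of 13 in the table, all 12 reaching 1 FPKM) summed to 262 and 314 in control 3 and MS 1, against 774 to 1047 in the others. Skeletal muscle differentiation genes (3 of 8 reaching 1 FPKM) summed to 35.1 and 46.6 in control 3 and MS 1 and to between 2.16 and 4.32 elsewhere. Most of the sums in control 3 and MS 1 was Acta1 (24.6 and 33.9) and Ckm (8.98 and 11.4). Myog was at most 0.314 FPKM in any library. Sums of 2 lists were higher in all MS libraries: macrophage genes (3 of 6 reaching 1 FPKM, Adgre1 at 0 throughout) at 26.3 to 27.4 in control and 43.7 to 48.8 in MS, and epithelial genes (4 of 5) at 0.231 to 1.99 and 2.89 to 11.3. Of 5 endothelial genes 0 reached 1 FPKM. The mitochondrial chromosome's share of a library's total lay at 13.2% to 14.3% among controls but at 2.73% to 3.81% after stretch. Ribosomal RNA rows held 0.646% to 0.797% among controls and 2.27% to 4.94% after stretch, so that both shares moved with the groups. Rescaling without its rows and those of ribosomal RNA left the member counts at 44 lower and 3 higher. Of the 7 myoblast markers, Pax7 and Msc were under a mean of 1 FPKM and not tested. Among the others 3 were called lower, against 23.2% of all tested genes. They were Itga7 at 72.3% of control (adjusted p = 0.00529 in limma), Myod1 at 62.7% (0.0283) and Cdh15 at 47.1% (0.00630). All MS libraries lay below all control libraries for these 3 and for Myf5, as for 26.8% of all tested genes, and also for the untested Msc. None of the 3 had a call in the fit with 3 library sets described below. The log2 fold changes of Itga7, Myod1 and Cdh15 there were -0.21, -0.41 and -0.27. Des, at 46.7 to 59.8 FPKM, and Myf5, at 1.63 to 2.50, were not called (adjusted p = 0.363 and 0.0522), Msc stayed under 0.22 FPKM, and Pax7 was at 0 in all libraries but MS 3. Control 3 was the highest control for 44 of the 49 members, against 37.3% of all tested genes, and MS 1 was the highest MS library for 33 members, against 43.5%. The part of these transcripts and shares in the results below was not tested. The main counts are given also for a fit with a term for 3 library sets (control 1 and 2, control 3 and MS 1, MS 2 and 3), in which the fold change is that of MS 1 over control 3, 1 library each. Its p-values rest on 2 residual degrees of freedom, from the spread between control 1 and 2 and between MS 2 and 3, and assume that MS 1 and control 3 vary likewise.

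Most origin and fork genes had fewer transcripts after stretch. Of the 49 members, all of which passed the filter of a mean of at least 1 FPKM, 44 fell and 3 rose, in limma at a Benjamini-Hochberg adjusted p under 0.05 over 12028 tested genes. Over all tested genes 23.2% were called lower and 30.6% higher. The median log2 fold change, on the log2(FPKM + 1) scale as throughout, was -0.70 for the members and 0.05 for all tested genes. The summed FPKM of the 49 members was 1078, 1116 and 1238 in the control libraries and 720, 697 and 676 in the MS libraries, 61.0% of control on average, and the groups did not overlap. On the log2(FPKM + 1) scale a fall of at least 1.5-fold was called for 34 members (8.35% of all tested genes) and of at least 2-fold for 7 (3.43%). By mean FPKM, Cdc7, Gins2, Fen1 and Chaf1a, outside these 7, were at 48.5%, 48.4%, 49.97% and 49.3% of control. All MS libraries lay below all control libraries for the same number of members as were called lower, 44, against 26.8% of all tested genes. With the term for 3 library sets 43 members were called lower and 0 higher by limma, with 45 and 0 at an unadjusted p under 0.05, and over all genes 11.0% and 15.3% were called. In bulk RNA, fewer cells in S phase and less of each transcript per cell cannot be told apart.

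**Figure D1:**
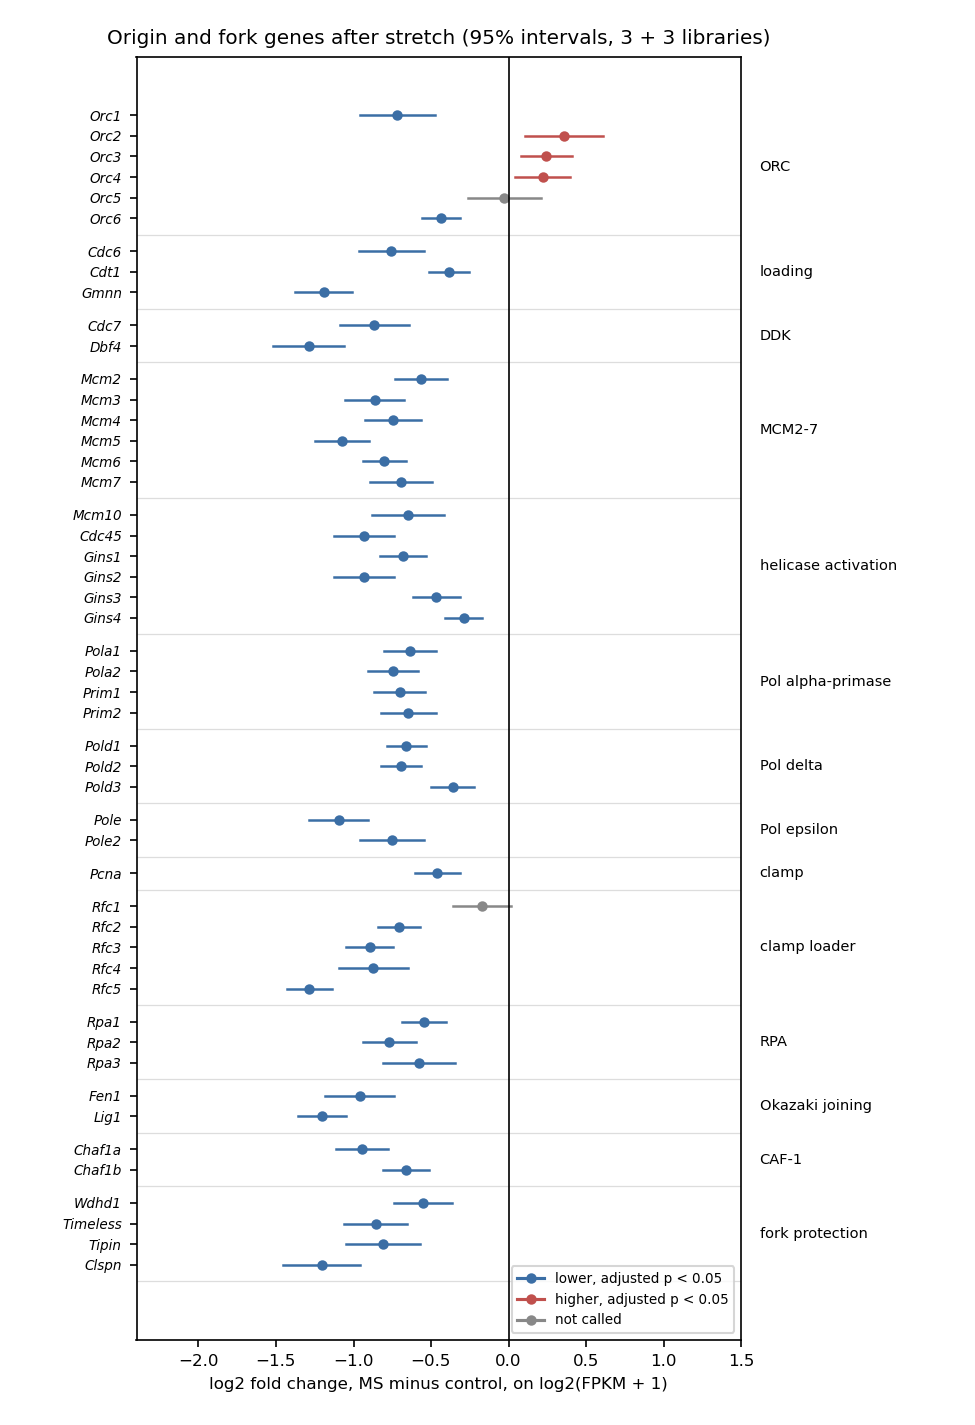
Log2 fold change of each of the 49 members, MS minus control, on log2(FPKM + 1), with 95% intervals from limma on 3 control and 3 MS libraries, ordered by subcomplex. Points left of 0 were lower in MS: 44 members lie there with a call, while Orc2, Orc3 and Orc4 lie right of 0 and the intervals of Orc5 and Rfc1 cross it.

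The origin recognition complex was the subcomplex whose members moved in both directions. Orc1 (chromosome 4, 108436620 to 108452777, mm39), the subunit that recruits CDC6 and is itself a textbook E2F target, was at 4.40, 4.41 and 5.73 FPKM in control and 2.77, 2.47 and 2.38 in MS. The groups did not overlap and Orc1 fell by 0.72 on the log2 scale (SE 0.10, adjusted p = 0.00105). Orc6, the smallest and most abundant subunit by FPKM, fell by 0.43, from 39.6 ± 2.17 to 29.0 ± 0.457 FPKM (SD, n = 3 each). Orc2, Orc3 and Orc4, core subunits of the ring, lay above control in every MS library, as 35.9% of all tested genes did. Orc2 (chromosome 1, 58501930 to 58544268) was at 12.6, 11.9 and 15.4 FPKM in control and 16.8, 19.3 and 15.8 in MS, with control 3 close to MS 3. Its log2 fold change was 0.36 (SE 0.11, adjusted p = 0.0264). Orc3 was at 7.08, 7.91 and 7.85 FPKM in control and 9.37, 9.81 and 8.45 in MS (0.24, SE 0.07, adjusted p = 0.0219). Orc4 was at 2.79, 3.16 and 3.17 FPKM in control and 3.45, 3.64 and 4.03 in MS (0.22, SE 0.08, adjusted p = 0.0422). Orc5, which binds ATP within the ring, was at 3.08, 3.76 and 4.04 FPKM in control and 3.67, 3.79 and 3.14 in MS, and the groups overlapped. Its log2 fold change of -0.03 had a 95% interval from -0.26 to 0.21 (adjusted p = 0.840), and its sign turned without control 3 (0.04) and without MS 3 (0.04). Orc5 shares 924 bases with the pseudogene row Gm15421 on the same strand, which averaged 2.00 FPKM in control and 2.08 in MS. Orc6 shares 171 bases with Vps35 on the opposite strand (63.5 FPKM in control, 79.1 in MS). The part of these overlaps was not tested.

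The upward calls of Orc2, Orc3 and Orc4 rested on small margins. With median-ratio scaling all of them missed the threshold, and with the term for 3 library sets their log2 fold changes were 0.12, 0.23 and 0.09, with adjusted p = 0.567, 0.242 and 0.618. Over all alternatives the adjusted p ranged from 0.00462 to 0.567 for Orc2, from 0.0170 to 0.242 for Orc3 and from 0.0226 to 0.618 for Orc4. Left without control 1 or without MS 2, limma called none of the 3, against 2 and 3 at an unadjusted p under 0.05, and without control 2 or without MS 1 it called 1. Orc2 shares 19046 bases of its span with Nif3l1 on the opposite strand, which averaged 4.23 FPKM in control and 6.37 in MS, and strand use in counting was not stated in the notes or headers. The direction of the complex as a whole is likewise not fixed: its median log2 fold change was 0.10, and -0.01 with the term for 3 library sets.

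**Figure D2:**
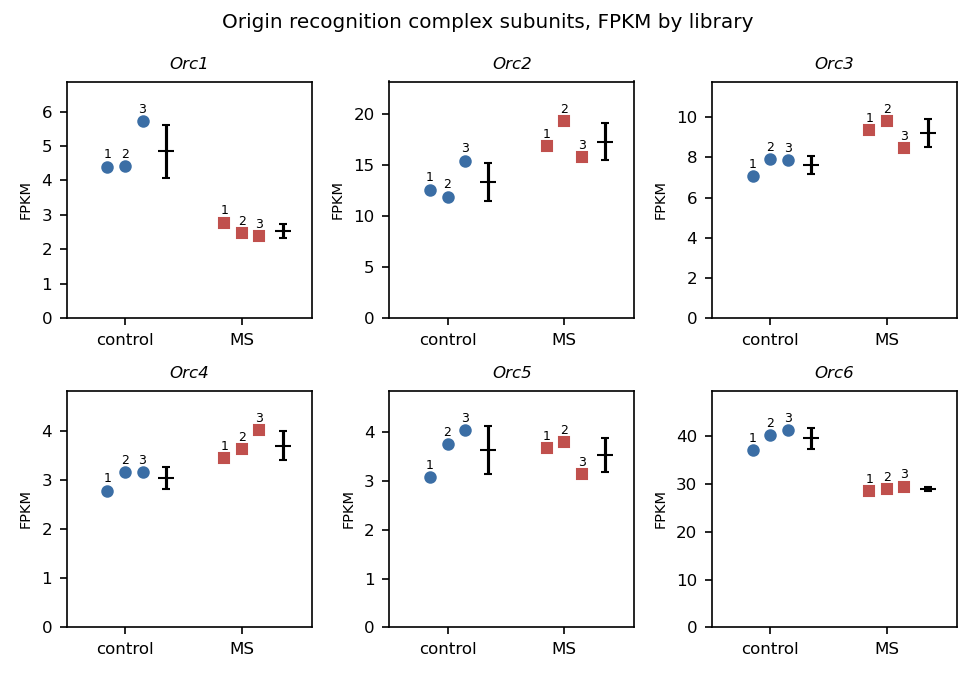
FPKM of the 6 origin recognition subunits in each library, with the replicate number over each point and the mean ± SD (n = 3) in black beside it. Orc1 and Orc6 are lower in every MS library, Orc2, Orc3 and Orc4 are higher in every MS library, and the Orc5 groups overlap.

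The make-up of the complex therefore differed by transcript. Within each library Orc6 took 53.3% to 56.4% of the summed FPKM of the 6 subunits in control and 42.6% to 46.6% in MS. Orc1 went from between 6.17% and 7.38% to between 3.62% and 4.29%, and Orc2 from between 16.7% and 19.9% to between 24.9% and 28.4%. These shares do not depend on the scaling between libraries. Orc1 was at 0.348, 0.369 and 0.371 of the Orc2 level in control and at 0.165, 0.128 and 0.151 in MS (exact permutation test on the log2 ratio, two-sided, p = 0.1, the smallest that 3 libraries against 3 allow). This pair was chosen after its values were seen.

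The loading factors Cdc6 and Cdt1, the inhibitor geminin and both DDK subunits fell. Geminin, Gmnn (chromosome 13, 24935828 to 24945906, mm39), the inhibitor that binds CDT1 and blocks relicensing, was at 21.3, 22.7 and 24.1 FPKM in control and 10.5, 8.94 and 8.79 in MS. It fell by 1.19 on the log2 scale (SE 0.08, adjusted p = 3.78e-05), to 41.4% of control. Cdt1, the MCM loader that geminin restrains, was at 24.8, 26.1 and 26.3 FPKM in control and 20.6, 19.3 and 18.4 in MS, a smaller fall of 0.38 (SE 0.06, adjusted p = 0.00112). Cdc6, the ATPase that loads the ring with ORC, fell by 0.76 from 7.20 ± 0.916 to 3.84 ± 0.251 FPKM (SD, n = 3 each). The ratio of Gmnn to Cdt1 was 0.862, 0.872 and 0.918 in control and 0.509, 0.462 and 0.477 in MS (exact permutation test on the log2 ratio, two-sided, p = 0.1, the smallest possible), a pair also chosen after its values were seen. Dbf4 (chromosome 5, 8446973 to 8472716), the activating subunit of the kinase DDK, had the largest fall of the 49 members in this fit. It was at 8.74, 9.20 and 11.2 FPKM in control and 3.69, 3.32 and 3.09 in MS (-1.29, SE 0.10, adjusted p = 6.87e-05). Cdc7, the catalytic subunit, was at 7.15, 6.33 and 7.03 FPKM in control and 3.69, 2.77 and 3.49 in MS (-0.87, SE 0.09, adjusted p = 0.000317). No control library overlapped an MS library for either subunit.

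**Figure D3:**
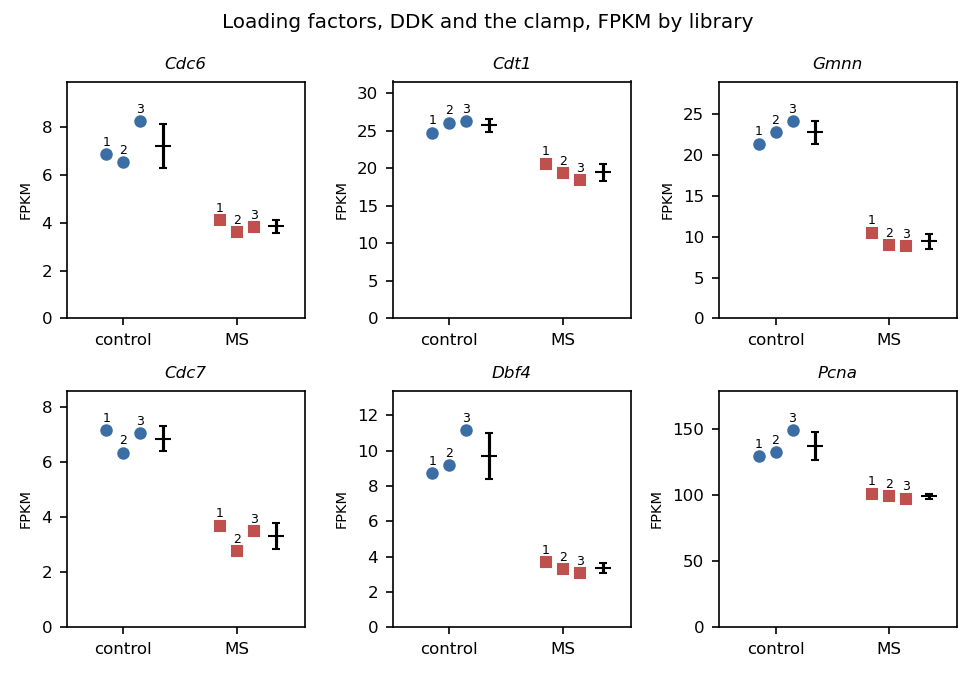
FPKM of Cdc6, Cdt1, Gmnn, Cdc7, Dbf4 and Pcna in each library, with the replicate number over each point and the mean ± SD (n = 3) in black. All 3 MS libraries lie below all 3 control libraries in every panel, with Dbf4 at 34.7% of control on average and Cdt1 at 75.7%.

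Each subunit of the MCM2-7 ring, the core of the replicative helicase, fell. Their summed FPKM was 303, 312 and 355 in control and 186, 188 and 173 in MS, 56.5% of control on average. Mcm5 (chromosome 8, 75836197 to 75855067, mm39) fell most, from 49.5, 50.4 and 59.4 FPKM in control to 24.6, 25.1 and 24.1 in MS (-1.07, SE 0.07, adjusted p = 4.61e-05). Mcm2 fell least, from 30.4, 32.2 and 36.1 FPKM to 20.9, 23.0 and 21.7 (-0.56, SE 0.07, adjusted p = 0.000624). Log2 fold changes of Mcm3, Mcm4, Mcm6 and Mcm7 lay between these, at -0.86, -0.75, -0.80 and -0.69. Mcm6 was the most abundant subunit and Mcm2 the least in both groups. The share of Mcm5 in the summed ring transcripts was 16.2% to 16.7% in control and 13.2% to 13.9% in MS, and it went from the third highest subunit to the fifth. Mcm7 (40.5 FPKM on average) shares 64 bases with Cops6 and 421 with Ap4m1 on the opposite strand.

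The factors that turn the ring into a working helicase fell as well, all 6 of them. Cdc45, which joins the ring at origin firing, was at 20.4, 22.9 and 24.2 FPKM in control and 11.1, 10.4 and 12.4 in MS (-0.93, SE 0.08, adjusted p = 0.000131). Among the GINS subunits Gins2 fell by 0.93, Gins1 by 0.68 and Gins3 by 0.47 on the log2 scale. Gins4 was the most abundant and fell least, from 26.4, 27.0 and 27.7 FPKM to 21.5, 23.2 and 21.1 (-0.29, SE 0.05, adjusted p = 0.00273), so that its share of the 6 transcripts rose from between 32.2% and 33.0% to between 39.9% and 44.5%. Mcm10, a scaffold needed for helicase activation, went from 4.34 ± 0.378 to 2.42 ± 0.380 FPKM (SD, n = 3 each; -0.65).

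Polymerase subunits among the members fell in all 9 cases. Of the small subunits outside the members, Pold4 (0.80) and Pole4 (0.34) rose and Pole3 fell (-0.51), as given below. The 4 genes of DNA polymerase alpha and primase, which lay down the RNA-DNA primer, kept close together, with log2 fold changes from -0.74 to -0.64. Pola2, the accessory subunit, was at 9.73, 11.0 and 11.6 FPKM in control and 6.18, 5.89 and 6.00 in MS (-0.74, SE 0.07, adjusted p = 0.00016). Pola1, the catalytic subunit, was at 11.97, 12.09 and 13.56 FPKM in control and 8.18, 7.88 and 7.08 in MS (-0.64, SE 0.07, adjusted p = 0.000375). For both genes every MS library was below every control library.

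In DNA polymerase delta, which copies the lagging strand, Pold2 fell most, from 32.0, 32.1 and 34.4 FPKM to 19.3, 19.3 and 21.2 (-0.69, SE 0.06, adjusted p = 8.98e-05). The catalytic subunit Pold1 fell by 0.66. Pold3, an accessory subunit, went from 11.2, 11.0 and 11.4 FPKM to 9.09, 8.43 and 7.92 (-0.36, SE 0.06, adjusted p = 0.00192), and lost its call with the term for 3 library sets (-0.29, adjusted p = 0.0620, the highest among its alternatives, which start at 0.000843). In DNA polymerase epsilon, which copies the leading strand, Pole, the catalytic subunit, was at 10.9, 10.6 and 11.7 FPKM in control and 5.12, 4.07 and 4.73 in MS (-1.10, SE 0.08, adjusted p = 6.17e-05). Pole2 was at 10.0, 10.3 and 12.5 FPKM in control and 6.52, 5.92 and 5.81 in MS (-0.75, SE 0.09, adjusted p = 0.00045). The order of these catalytic subunits by log2 fold change was Pole, Pold1 and Pola1, and the interval of Pole (-1.29 to -0.91) did not reach those of the other two.

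Pcna (chromosome 2, 132091082 to 132095234, mm39), the sliding clamp and the most abundant member, fell less than most. It was at 130, 133 and 150 FPKM in control and 101, 99.5 and 97.6 in MS, 72.4% of control on average (-0.46, SE 0.06, adjusted p = 0.000768). The clamp loader split by subunit. Rfc5 (chromosome 5, 117516168 to 117527112), a small subunit, was at 15.9, 15.5 and 17.5 FPKM in control and 6.40, 5.93 and 5.93 in MS (-1.28, SE 0.06, adjusted p = 1.6e-05). Rfc2, Rfc3 and Rfc4, the other small subunits, fell by 0.70, 0.90 and 0.87. Rfc1 (chromosome 5, 65419193 to 65492964), the large subunit that opens PCNA, was at 18.7, 19.5 and 22.6 FPKM in control and 19.0, 17.7 and 16.8 in MS, with overlapping groups. Its log2 fold change of -0.17 had a 95% interval from -0.36 to 0.02 (adjusted p = 0.110), which does not reach the intervals of the 4 small subunits, and it passed the threshold with a term for control 3 and MS 1 against the rest (adjusted p = 0.0332, the lowest of a range up to 0.284 over its alternatives). Within each library Rfc1 took 24.0% to 26.1% of the summed loader transcripts in control and 36.6% to 37.5% in MS.

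**Figure D4:**
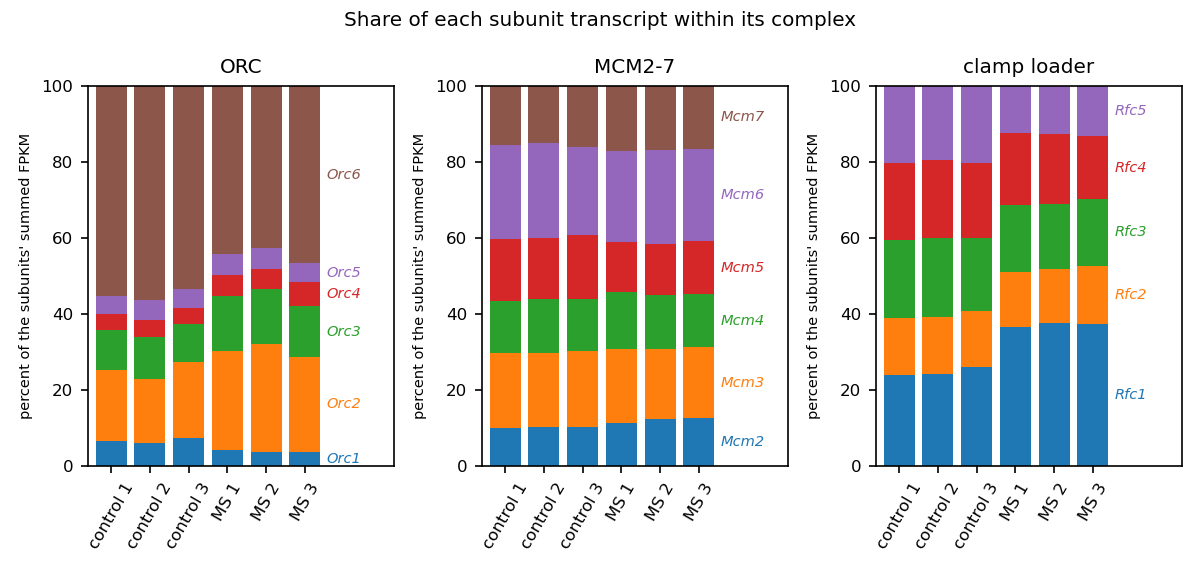
Share of each subunit in the summed FPKM of its complex, in percent, for the origin recognition complex, the MCM ring and the clamp loader in each of the 6 libraries. Orc6 shrinks from over 53% to under 47%, Mcm5 from over 16% to under 14%, and Rfc1 grows from under 27% to over 36%, while the other subunits of the ring change less.

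Single-strand binding, Okazaki fragment joining and histone deposition genes fell in all 7 cases. RPA coats single-stranded DNA at the fork. Its subunit Rpa2 was at 15.4, 15.6 and 18.3 FPKM in control and 8.99, 9.04 and 9.61 in MS (-0.77, SE 0.07, adjusted p = 0.000182), and the DNA-binding subunit Rpa1 at 45.9, 50.6 and 52.3 FPKM in control and 34.9, 32.9 and 33.2 in MS (-0.55, SE 0.06, adjusted p = 0.000317). Rpa3, the smallest subunit, fell by 0.58 on the log2 scale. Lig1, the ligase that seals Okazaki fragments, was at 38.4, 39.8 and 44.5 FPKM in control and 17.7, 16.4 and 17.4 in MS (-1.20, SE 0.07, adjusted p = 2.21e-05). Fen1, the flap nuclease that trims them, was at 35.8, 38.3 and 45.8 FPKM in control and 20.7, 18.6 and 20.6 in MS (-0.96, SE 0.09, adjusted p = 0.000203). No MS library reached a control library for these genes.

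Both large subunits of CAF-1, which places histones on new DNA, fell. Chaf1a was at 17.5, 18.2 and 20.3 FPKM in control and 9.80, 9.18 and 8.67 in MS (-0.94, SE 0.07, adjusted p = 6.53e-05), and Chaf1b at 8.85, 8.71 and 9.41 FPKM in control and 5.54, 5.53 and 4.89 in MS (-0.66, SE 0.06, adjusted p = 0.000183). Chaf1a shares 5245 bases with Ubxn6 on the opposite strand, which averaged 5.51 FPKM in control and 8.38 in MS. Among the fork protection genes Clspn, the adaptor that passes the ATR signal to CHK1, fell most, from 11.1, 10.9 and 12.6 FPKM to 5.35, 3.94 and 4.12 (-1.20, SE 0.11, adjusted p = 0.000128). Wdhd1, which links the helicase to polymerase alpha, fell least, from 8.35, 9.04 and 9.47 FPKM to 6.48, 5.66 and 5.27 (-0.55, SE 0.08, adjusted p = 0.00116). Timeless and its partner Tipin, which hold helicase and polymerase together, fell by 0.86 and 0.81.

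By median log2 fold change the subcomplexes ran from Okazaki joining and DDK (both -1.08) and polymerase epsilon (-0.92) through the clamp loader (-0.87), fork protection (-0.83), CAF-1 (-0.80), the MCM ring (-0.77), loading factors with geminin (-0.76), polymerase alpha (-0.67), helicase activation (-0.66), polymerase delta (-0.66) and RPA (-0.58) to PCNA (-0.46) and ORC (0.10). Most of these groups hold 2 to 6 genes, their medians carry no test, and neighbours in the order were not compared. Places changed with a pseudocount of 0.1. DDK was then at -1.26, Okazaki joining at -1.12, loading factors with geminin at -0.89, helicase activation at -0.82 and the MCM ring at -0.79. For MS 1 minus control 3 on log2(FPKM + 1), medians were -1.20 for Okazaki joining, -1.08 for DDK, -0.85 for the MCM ring and -0.01 for ORC. Of the 49 members 46 were lower in MS 1, against 40.3% of all tested genes.

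Of 47 other genes of DNA replication, all tested, 30 fell and 4 rose, with a median log2 fold change of -0.35, and with the term for 3 library sets 28 were lower and 1, Pold4, higher. In the main fit 63.8% of this list was called lower and 8.51% higher, against 23.2% and 30.6% of all tested genes. The largest fall was in Top2a, the topoisomerase that untangles sister chromatids and peaks in mitosis (89.2 ± 5.98 to 22.6 ± 4.95 FPKM, -1.95). Asf1b, a histone chaperone that feeds CAF-1, came next on the log2(FPKM + 1) scale (-1.71). Fbxo5, an inhibitor of the anaphase-promoting complex that also guards geminin (-1.49), and Pclaf, a PCNA-associated factor (-1.37), followed. This order depends on the added 1. By mean FPKM the low gene Ticrr (3.78 in control, 1.11 in MS) was at 29.5% of control, against 30.0% for Asf1b. Pold4, the smallest subunit of polymerase delta, went the other way, from 60.7, 63.8 and 71.7 FPKM in control to 110, 120 and 112 in MS (0.80, SE 0.07, adjusted p = 0.000124). The histone-fold subunit Pole4 of polymerase epsilon (0.34) and the CRL4 ligase genes Cul4a (0.21) and Ddb1 (0.17), whose ligase destroys CDT1 during S phase, also rose, but had no call with the term for 3 library sets (adjusted p = 0.144, 0.0969 and 0.277 in limma). Dtl, a further subunit gene of the CRL4 ligase, fell by 0.51 (adjusted p = 0.00191 in limma), so the genes of this ligase moved in both directions. With the term for 3 library sets its log2 fold change was -0.49. Pole3, the partner of Pole4, fell by 0.51. Rnaseh2a, Rnaseh2b and Rnaseh2c, the subunits of an enzyme that removes RNA from DNA, fell by 0.35, 0.61 and 1.06.

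The 13 genes of this list that did not pass were Mtbp, Rif1, Chtf8, Top1, Top2b, Asf1a, Supt16, Atr, Atrip, Rad17, Rad9a, Hus1 and Rad1, with log2 fold changes between -0.24 and 0.16. Of the 8 fork checkpoint genes 2 were called lower, a share near the 23.2% of all tested genes. Chek1, the effector kinase (-0.74), and Etaa1, an activator of ATR (-0.62), fell, while Atr itself had a level of 1.76 ± 0.279 FPKM among controls against 1.34 ± 0.160 after stretch (SD, n = 3 each; -0.24, adjusted p = 0.0910). Origin firing genes included Ticrr, which brings CDC45 to origins with TOPBP1 (-1.18), and Topbp1 (-1.14), while Mtbp, the partner of TICRR, averaged 8.86 ± 1.08 FPKM in control libraries and 8.65 ± 0.604 after stretch (SD, n = 3 each; -0.03, adjusted p = 0.817).

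**Figure D5:**
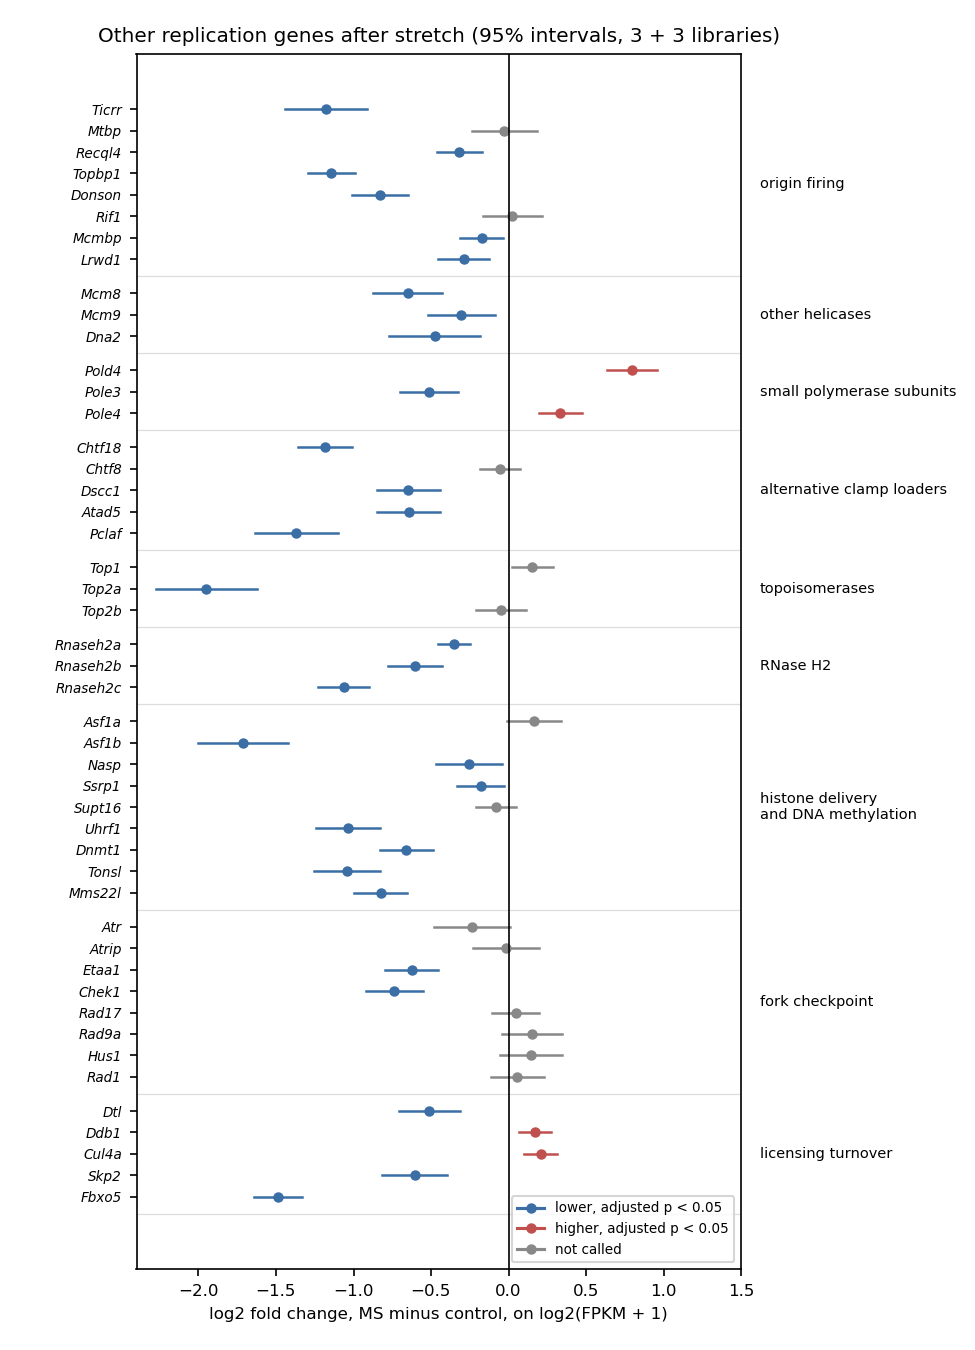
Log2 fold change of 47 other replication genes, MS minus control, on log2(FPKM + 1), with 95% intervals from limma on 3 control and 3 MS libraries, ordered by function. Top2a and Asf1b lie farthest left, at -1.95 and -1.71, and Pold4 lies farthest right, at 0.80.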

How the data were processed

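Poly(A) RNA-seq libraries of C2C12 cells were deposited as 1 table of FPKM per gene and library, per the file headers. The build is mm39 and the tools listed are StringTie 2.1.6, HISAT2 2.2.1, cutadapt 1.9, edgeR and DESeq2, per the submitters' processing notes, which state neither role nor order. Strand use in counting and the treatment of multi-mapped reads are not stated there or in the file. Rows are Ensembl IDs, of which 31077 among 32815 were paired with symbols through GENCODE M21. The symbol Chtf8 sits on 2 IDs, of which the higher was used.

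Count models were not used because FPKM is already normalized. Ratios of low values between libraries clustered at the worth of a fragment, placing the normalizing totals at 0.961 to 1.008 of that of control 1, while the absolute depth is unknown. The 12028 genes averaging at least 1 FPKM were fitted on log2(FPKM + 1) with limma 3.58.1 in R 4.3.3 (lmFit, eBayes with trend, two-sided, 2 groups), with Benjamini-Hochberg adjustment over all of them. The steps were tested on simulated data. Subcomplexes are described by counts and medians without a set test. Log2 values understate changes of low genes. Members and lists were chosen with earlier results of these data known. Library values are given for the members with the largest and the smallest change of each subcomplex and for those not called or called higher, and other replication genes are named for the 4 largest changes each way and where not called. Pole3, Dtl, the RNase H2 genes, Chek1, Etaa1, Ticrr and Topbp1 were named after their values were seen. Same-numbered libraries did not deviate together (correlations of deviations from the group means -0.33, 0.25 and -0.37).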

Additional observations from a re-analysis of the deposited data

How the results depend on the processing

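Of the 44 members called lower, 43 kept their call under each of 18 alternatives that tested them (Pold3 was the exception), and all 44 kept their direction. Leaving out each library in turn gave 44 lower and 0 to 3 higher members. The count of 3 higher members was 0 without the low-value filter, 0 with median-ratio size factors and 0 with the term for 3 library sets (chosen after seeing the data), against 3, 2 and 0 at an unadjusted p under 0.05 in limma. With a pseudocount of 0.1 the members' median was -0.81. Of the other replication genes 18 were lower at a mean of at least 5 FPKM, where fewer genes were tested. Their count of higher genes was 4 there too. In separate settings at the 1 FPKM filter 8 were higher with array weights, 1 with the term for 3 library sets, and 3 to 7 with a library left out (7 without control 3). Over all genes that term left 1321 lower and 1845 higher, with 2 residual degrees of freedom. Orc5 turned to 0.016 without both control 3 and MS 1, and ranged from -0.11 to 0.038 with a library left out. The ORC median was -0.0093 with the term for 3 library sets. The cause of these changes was not tested. With the replicate number as a block, which the data do not bear out as a pairing, 44 members were lower and 2 higher (Orc2 missed, at 0.36, adjusted p = 0.0668), and 2567 and 3323 of all genes were called. Median-ratio scaling turned the split of all calls to 3182 lower and 3094 higher. Depth is unknown, so precision of members near 3 FPKM cannot be bounded.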
